A study of Mus musculus with 17 samples.

Results

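A set of 9 long non-coding RNAs (lncRNAs) was followed in cultured mouse astrocytes. They were *Malat1*, *Neat1*, *Gas5*, *Snhg1*, *Snhg8*, *Snhg12*, *Miat*, *Rmst* and *Pantr1*, chosen by name and taken as the 9 rows of the count table that carry these symbols, out of 56691 gene rows, 22606 of which had a count in any library. Astrocytes were immunopanned from whole C57BL/6 brain at postnatal day 2, with olfactory bulbs, cerebellum and meninges removed, after depletion of CD45+ and O4+ cells and selection on HepaCAM, and were kept in serum-free medium with HB-EGF. The 17 libraries form 2 experiments. In the first, SAG, an agonist of Smoothened in the SHH pathway, was given at 500 ng/ml from 3 days in vitro for 3 days (3 libraries), with the solvent DMSO as control (3 libraries). In the second, FGF2 (4 libraries) or FGF10 (3 libraries) was given at 50 ng/ml from 2 days in vitro for 7 days, with PBS as control (4 libraries). All groups were C57BL/6 cells, and the experiments differed in the day treatment began and in its length. No label states that the libraries of a group were separate litters or days, and the study calls them both sample pools and biological replicates, so p-values measure only the spread between these libraries, which may be technical.

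Total counts ran from 17481727 to 68342287 per library. Levels are given as CPM, the counts scaled to a common library total, after TMM scaling over all 17 libraries. Reads were made from the 3′ ends of transcripts, so a CPM value does not scale with transcript length. The labels were checked on *Ptch1*, the SHH receptor and a target of the pathway, which had 469 ± 11.7 CPM (SD, n = 3) in the SAG group against 84.0 ± 18.0 CPM (SD, n = 3) in DMSO controls. *Gli1*, a transcription factor of the same pathway, was at 0 counts in all DMSO libraries and at 38.1, 6.67 and 6.76 CPM in SAG replicates 1, 2 and 3. *Spry4*, a target of FGF signalling, had 0, 10.5, 77.9 and 53.7 CPM in FGF2 replicates 1 to 4 and 1.12, 4.73, 26.7 and 8.54 CPM in PBS replicates 1 to 4, ranges that overlapped. FGF10 replicates 1, 2 and 3 had 5.94, 3.83 and 6.03 CPM. All 10 astrocyte markers were detected at the median, at a summed level of 3454 to 5208 CPM, and all 9 microglia markers were under 1 CPM at the median. In bulk samples, fewer cells of a type and less RNA per cell cannot be told apart.

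*Malat1* and *Neat1* are nuclear RNAs from neighbouring genes. *Malat1* RNA gathers in nuclear speckles, which store splicing factors. The long form of *Neat1* RNA is the scaffold of paraspeckles, nuclear bodies that hold RNA-binding proteins such as SFPQ and NONO. *Gas5*, *Snhg1*, *Snhg8* and *Snhg12* are hosts of small nucleolar RNAs (snoRNAs): the introns of each carry snoRNAs that guide the chemical modification of ribosomal RNA, while the spliced host is usually turned over by nonsense-mediated decay on ribosomes. *Miat*, *Rmst* and *Pantr1* are lncRNAs of the developing nervous system. *Rmst* is known to bind SOX2, and *Pantr1* is transcribed away from the transcription factor gene *Pou3f3*.

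In GENCODE M21 on GRCm38, the build named in the submitters' processing notes, *Malat1* is a gene of 6983 bases at chr19:5795690-5802672 on the minus strand. *Neat1* lies 22.0 kb away at chr19:5824708-5845478 on the same strand. The longest annotated transcripts of both carry a U-rich stretch followed by an A-rich tract, the elements of the RNA triple helix that is known to protect the ends of these transcripts, which are cut out by RNase P rather than ending in a poly(A) tail. The sequences are shown because the libraries were primed on runs of A. They read as follows on the strand of the gene, with the U-rich stretch and the A-rich tract in capitals.
Malat1: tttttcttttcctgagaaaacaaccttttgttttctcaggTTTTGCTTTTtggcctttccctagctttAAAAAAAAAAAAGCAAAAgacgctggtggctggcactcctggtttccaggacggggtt
Neat1: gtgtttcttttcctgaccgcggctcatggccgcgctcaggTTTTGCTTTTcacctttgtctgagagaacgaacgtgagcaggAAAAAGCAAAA
The *Malat1* stretch is chr19:5795942-5796067 and holds a run of 12 A, the longest in the transcript, with 292 annotated bases after the tract. The *Neat1* stretch is chr19:5824708-5824800 and its tract is the annotated end of the transcript. The pattern TTTTGCTTTT followed within 100 bases by 5 or more A and GCAAAA, searched on the transcript strand, was found in 4 of 141767 annotated transcripts, from the genes *Malat1*, *Neat1* and *Retreg3*. Whether reads of either gene were primed at this tract or at a poly(A) tail was not tested. Counts are per gene, so the *Neat1* values do not separate its transcript of 20771 bases from shorter annotated ones, such as that of 3004 bases.

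The snoRNA hosts were compact genes: *Gas5* spans chr1:161034422-161038539, *Snhg1* chr19:8723475-8726443, *Snhg8* chr3:123507552-123508404 and *Snhg12* chr4:132308623-132311024. Their introns hold the C/D box snoRNAs, whose C box TGATGA and D box CTGA are in capitals in the examples below, and H/ACA snoRNAs, in which ACA stands 3 bases before the end. One snoRNA is shown per host.
Snord47 in Gas5 (chr1:161038082-161038158, plus strand): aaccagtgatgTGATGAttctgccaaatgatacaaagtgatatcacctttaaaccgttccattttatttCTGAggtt
Snord99 in Snhg12 (chr4:132310691-132310764, plus strand): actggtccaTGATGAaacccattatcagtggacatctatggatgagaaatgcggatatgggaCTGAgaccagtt
Snord22 in Snhg1 (chr19:8725866-8725991, plus strand): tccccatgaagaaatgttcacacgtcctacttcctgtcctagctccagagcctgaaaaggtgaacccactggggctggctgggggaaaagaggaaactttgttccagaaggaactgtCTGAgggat
Snora24 in Snhg8 (chr3:123507937-123508066, minus strand): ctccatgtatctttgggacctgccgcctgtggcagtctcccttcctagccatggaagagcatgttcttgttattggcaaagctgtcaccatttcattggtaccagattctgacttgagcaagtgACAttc
Only the D box was found in Snord22. The D and C boxes were both found in 4 of 6 annotated Snord transcripts nested in the hosts and in 68 of 99 Snord transcripts of the whole annotation. None of the 21 nested snoRNA symbols in the table had a count in any library, against 71 of 1376 snoRNA symbols with a count in the whole table. The values below are those of the host genes' own rows.

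Messenger RNAs of ribosomal proteins begin with a C and a run of pyrimidines, the 5′ TOP element, and known snoRNA hosts share it. The starts of hosts and of *Miat* are shown for this reason, from 20 bases before to 40 bases from the annotated start in the RefSeq promoter table (GRCm38.p6), with the pyrimidines that run on from the start in capitals.
Gas5 (chr1:161035146-161035205, plus strand): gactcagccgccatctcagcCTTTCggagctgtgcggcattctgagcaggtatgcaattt
Snhg8 (chr3:123508297-123508356, minus strand): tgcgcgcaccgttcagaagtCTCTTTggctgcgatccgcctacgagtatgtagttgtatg
Snhg12 (chr4:132308658-132308717, plus strand): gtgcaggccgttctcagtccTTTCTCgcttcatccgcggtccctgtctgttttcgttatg
Snhg1 (chr19:8723467-8723526, plus strand): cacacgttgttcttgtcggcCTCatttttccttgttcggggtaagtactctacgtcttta
Miat (chr5:112228909-112228968, minus strand): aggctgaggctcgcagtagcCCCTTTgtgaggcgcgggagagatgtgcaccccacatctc
A start with C and at least 5 pyrimidines on the coding strand was found at 3 of the 7 starts listed for 6 of the 9 lncRNAs, those of *Gas5* (the downstream of its 2 starts), *Snhg8* and *Miat*. The same was found at 2.51% of 32851 starts in the table and at 18.7% of 75 starts of ribosomal protein genes. Most ribosomal protein genes thus did not pass at their annotated starts, so failing here does not show that the element is absent. Nor does passing show that it is used. *Snhg12* began with 6 pyrimidines of which the first is T, and *Snhg1* with 3.

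*Malat1* was among the most abundant transcripts of these cells, rank 2 of 22606 genes by mean CPM. It took between 1.51% of the counts (95% Wilson interval 1.51 to 1.52, FGF10 replicate 3) and 5.53% (5.52 to 5.54, SAG replicate 1), intervals that cover counting error only. It was at 46265, 50167 and 37574 CPM in DMSO replicates 1, 2 and 3 and at 52320, 54730 and 45893 CPM in SAG replicates 1, 2 and 3. PBS replicates 1 to 4 had 37155, 34240, 19155 and 24385 CPM, and FGF2 replicates 1 to 4 had 39703, 32932, 18053 and 16950 CPM. FGF10 replicates 1, 2 and 3 had 28185, 32447 and 14686 CPM. Every library with replicate number 3 or 4 of the FGF experiment was below every library numbered 1 or 2, in all 3 treatments. By group mean the order was SAG, DMSO, PBS, FGF2 and FGF10. In this order SAG and DMSO overlapped, DMSO and PBS did not, and PBS, FGF2 and FGF10 overlapped.

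*Neat1* was a rarer transcript, rank 3082 by mean CPM, with a 12.9-fold range between libraries. It had 66.0, 39.7 and 30.6 CPM in DMSO replicates 1, 2 and 3 and 8.86, 35.8 and 29.3 CPM in SAG replicates 1, 2 and 3. In the FGF experiment it had 97.6, 110, 23.6 and 34.6 CPM in PBS replicates 1 to 4, 114, 69.7, 15.4 and 37.7 CPM in FGF2 replicates 1 to 4, and 86.8, 85.3 and 32.1 CPM in FGF10 replicates 1, 2 and 3. The split between replicates 1 and 2 and replicates 3 and 4 was again complete, and the 5 groups overlapped.

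*Gas5* was the most abundant host, rank 27 by mean CPM, with a range of 1514 to 2994 CPM. Its spread was narrow in DMSO, at 2319 ± 20.5 CPM (SD, n = 3), and widest in FGF10, at 1818 ± 474 CPM (SD, n = 3). *Snhg8* had rank 478 and ran from 168 to 352 CPM. *Snhg1* and *Snhg12* were lower, at 46.1 to 173 CPM and 8.14 to 65.0 CPM, and their coefficient of variation within groups reached 51.8% for *Snhg1* (FGF2) and 57.1% for *Snhg12* (PBS). For *Gas5* and *Snhg8* it reached 26.1% (FGF10) and 36.1% (FGF2).

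*Miat* was at 231 CPM on average, and 1 library stood apart: FGF2 replicate 3 had 45.7 CPM, while the other 16 libraries had 172 CPM or more. *Pantr1* had the narrowest range of the 9 lncRNAs, from 258 to 399 CPM, a ratio of 1.55. *Rmst* was the rarest, at up to 26.0 CPM. It had 0 counts in FGF2 replicate 3, which allows up to 0.0634 CPM (3 counts), and 1 count in FGF2 replicate 2, where 3 counts are 0.171 CPM, while FGF2 replicates 1 and 4 had 7.85 and 7.79 CPM. Its coefficient of variation within groups was 115% in FGF2 and 81.7% in FGF10, against 43.1% in DMSO and 20.4% in SAG. For SAG against DMSO, 2 SE on either side of its log2 fold change span −3.29 to 2.03. That SE rests on a fitted dispersion that draws on genes of like level, not on the spread of these libraries alone.

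**Figure D1:**
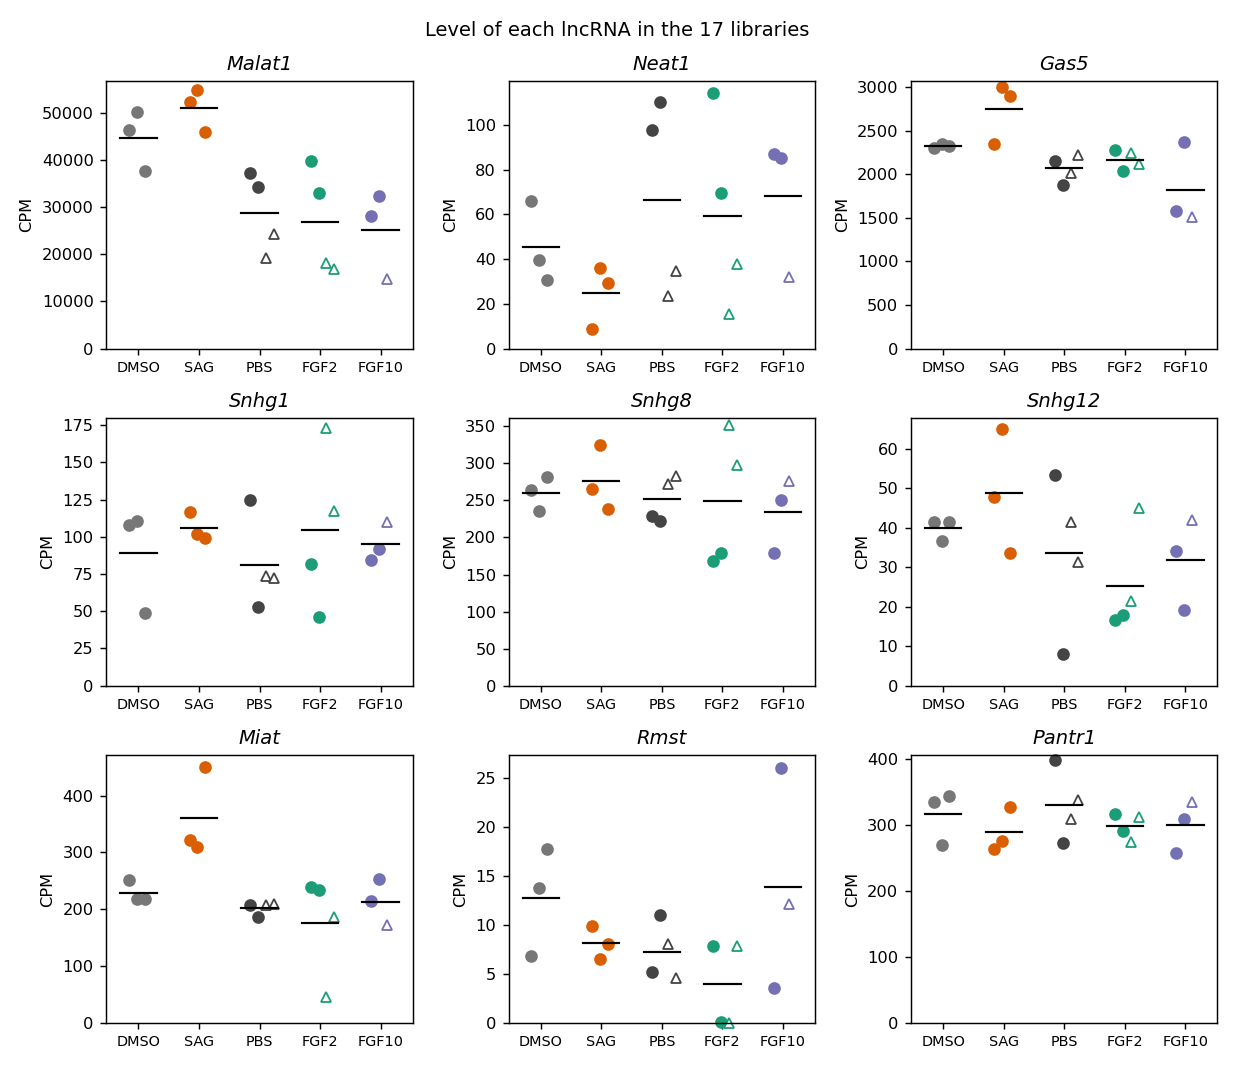
Level of each lncRNA in CPM (linear axes from 0) in the 17 libraries by group; each point is a library, black lines are group means, and open triangles are replicates 3 and 4 of the FGF experiment. Malat1 and Neat1 show open triangles below all filled circles within PBS, FGF2 and FGF10, and Miat shows 3 SAG libraries between 310 and 451 CPM, above all DMSO libraries.

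SAG against DMSO asks whether SHH pathway activation changes the level of a transcript. None of the 9 lncRNAs was called, which means an adjusted p under 0.05 (Benjamini-Hochberg) in the quasi-likelihood test of edgeR. Of all 12538 genes tested, 8 (0.0638%) were called, and 714 genes, among them 1 of the 9 lncRNAs, had an unadjusted p under 0.05. DESeq2 called 407 genes, among them 1 of the 9. That lncRNA was *Miat* in both cases. It had 323, 310 and 451 CPM in SAG replicates 1, 2 and 3 and 251, 218 and 218 CPM in DMSO replicates 1, 2 and 3, so the lowest SAG value was above the highest DMSO value. Its log2 fold change was 0.68 (SE 0.21), with an adjusted p of 0.51 by edgeR and 0.0132 by DESeq2, and the exact permutation p was 0.1, the smallest that 3 against 3 libraries can give. Under the other edgeR settings and with each library left out the adjusted p was between 0.36 and 0.95 and the log2 fold change between 0.48 and 0.79.

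*Gas5* was the other lncRNA whose groups did not overlap, at 2341, 2994 and 2901 CPM with SAG against 2300, 2341 and 2318 CPM with DMSO, although the lowest SAG and the highest DMSO library were level at 2341 CPM. Its log2 fold change was 0.27 (SE 0.14, adjusted p = 1.00 by edgeR). The groups did not overlap for 2 of the 9 lncRNAs and for 14.1% of all genes tested. *Malat1* had a log2 fold change of 0.21 (SE 0.12), *Neat1* of −0.86 (SE 0.63), *Snhg1* of 0.27 (SE 0.33), *Snhg8* of 0.11 (SE 0.20) and *Snhg12* of 0.32 (SE 0.43). *Pantr1* and *Rmst* had log2 fold changes of −0.10 (SE 0.19) and −0.63 (SE 1.33). The value of *Neat1* was −0.46 without SAG replicate 1, −0.49 without DMSO replicate 1 and −1.22 without SAG replicate 2. For *Malat1* and *Pantr1*, 2 SE on either side span −0.02 to 0.45 and −0.49 to 0.28. The median log2 fold change was 0.21 over the 9 lncRNAs and −0.02 over all genes tested. Other summed levels differed between the same libraries, and their part in the values of *Miat* and *Gas5* was not tested. Neuron markers summed to 96.3 to 258 CPM in DMSO and 26.0 to 88.8 CPM in SAG libraries, oligodendrocyte lineage markers to 193 to 314 CPM and 139 to 169 CPM, and ependymal markers to 151 to 259 CPM and 69.4 to 145 CPM, with no member of these lists called. Ribosomal protein genes took 7.92% to 8.53% of the counts in DMSO and 8.96% to 9.83% in SAG libraries.

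FGF2 against PBS and FGF10 against PBS ask the same of FGF signalling, and share the 4 PBS libraries. No lncRNA of the 9 was called by edgeR for FGF2 (0 of 12744 genes, 0%) or for FGF10 (0 of 13309 genes, 0%), none had an unadjusted p under 0.05, and DESeq2 called none of the 9. Over all genes, 223 had an unadjusted p under 0.05 for FGF2 and 305 for FGF10, and DESeq2 called 120 and 106. The groups of the 9 lncRNAs overlapped in every case with all replicates pooled. Without overlap were 2.44% of all genes for FGF2 and 4.8% for FGF10. For FGF2 the log2 fold changes were −0.10 (SE 0.31) for *Malat1*, −0.16 (SE 0.58) for *Neat1*, 0.06 (SE 0.17) for *Gas5* and −0.02 (SE 0.26) for *Snhg8*. *Snhg1* had 0.37 (SE 0.38), *Snhg12* −0.41 (SE 0.58), *Miat* −0.20 (SE 0.38), *Rmst* −0.87 (SE 1.87) and *Pantr1* −0.15 (SE 0.19). For FGF10 they were −0.19 (SE 0.28) for *Malat1*, 0.04 (SE 0.52) for *Neat1*, −0.18 (SE 0.20) for *Gas5*, −0.10 (SE 0.22) for *Snhg8* and −0.13 (SE 0.21) for *Pantr1*. *Gas5* was the most tightly bounded lncRNA: 2 SE on either side span −0.27 to 0.40 for FGF2 and −0.58 to 0.21 for FGF10.

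The 2 ligands, given at the same dose and time, were also set against each other. None of the 9 lncRNAs was called by edgeR between FGF2 and FGF10 (0 of 13493 genes, 0%), none had an unadjusted p under 0.05, DESeq2 called none of the 9, and the groups overlapped for all 9 (4.94% of all genes did not overlap). Over all genes, 324 had an unadjusted p under 0.05, with 675 expected by chance, and DESeq2 called 90. The log2 fold change was 0.25 (SE 0.22) for *Gas5*, 0.10 (SE 0.36) for *Malat1*, 0.09 (SE 0.30) for *Snhg8* and −0.01 (SE 0.21) for *Pantr1*. *Rmst* had the widest difference, −1.82 (SE 1.82). It was −0.99 without FGF10 replicate 2, at 26.0 CPM.

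Libraries of the FGF experiment with the same replicate number deviated together, a likeness that includes any shift shared by replicates 1 and 2 or by replicates 3 and 4. The difference was therefore also taken within each of these 2 sets. Within replicates 1 and 2, *Malat1* differed between FGF2 and PBS by 0.03 on the log2 scale (SE 0.10). Within replicates 3 and 4 it differed by −0.32 (SE 0.13, adjusted p = 0.92 by edgeR, 2 libraries against 2). *Snhg1* differed by −0.47 (SE 0.49) within replicates 1 and 2 and by 0.98 (SE 0.30, adjusted p = 0.92) within replicates 3 and 4, where FGF2 had 173 and 117 CPM and PBS 73.6 and 72.3 CPM. The test of the difference between these 2 effects gave 1.45 on the log2 scale (SE 0.61, unadjusted p = 0.034, adjusted p = 1.00 by edgeR) for *Snhg1*. It gave −0.35 (SE 0.19, adjusted p = 1.00) for *Malat1*. For FGF10, *Malat1* had a log2 fold change of −0.39 (SE 0.11, unadjusted p = 0.0020) against PBS with the replicate set as a term, and its adjusted p over all genes was 1 by edgeR. Within replicates 1 and 2 the value was −0.24 (SE 0.09, unadjusted p = 0.031 by edgeR, not called). FGF10 had 28185 and 32447 CPM there and PBS 37155 and 34240 CPM. Within replicates 3 and 4 it was −0.56, with 1 FGF10 library at 14686 CPM and PBS at 19155 and 24385 CPM. FGF10 libraries were thus below PBS libraries within each set, although the pooled groups overlapped.

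**Figure D2:**
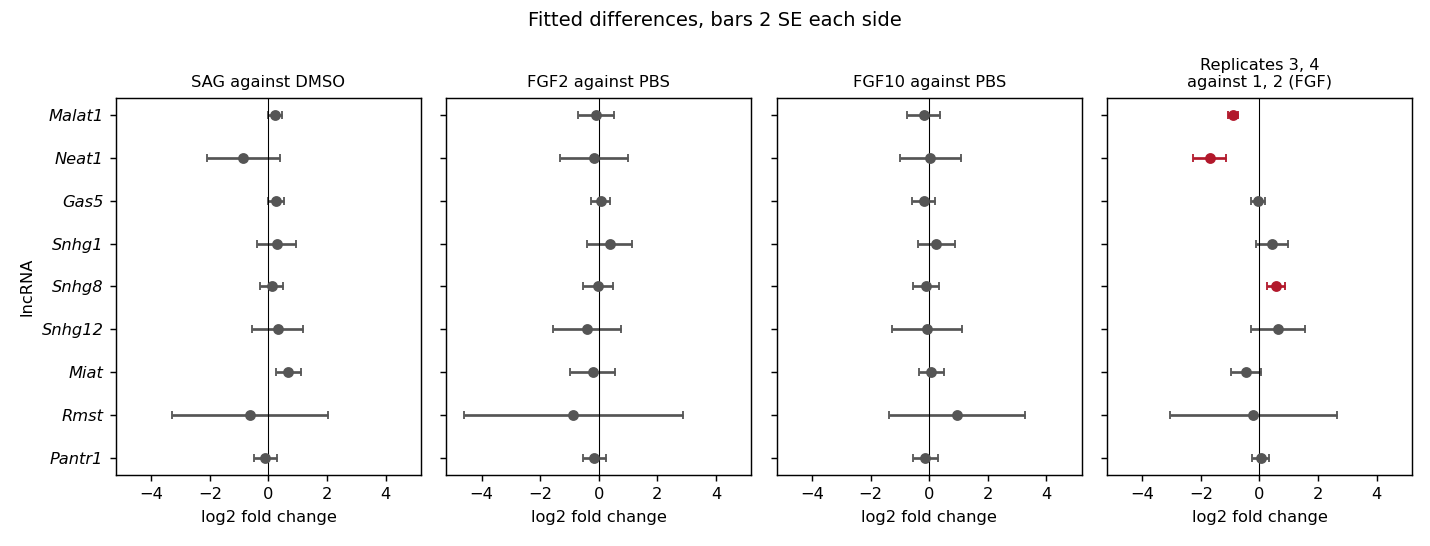
Fitted log2 fold change of each lncRNA with 2 SE on either side, by comparison; red marks an adjusted p under 0.05. The SAG, FGF2 and FGF10 panels hold no red point, and the panel of replicates 3 and 4 against 1 and 2 holds 3, Malat1 (−0.91), Neat1 (−1.70) and Snhg8 (0.55).

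The clearest differences among the 9 lncRNAs lay between replicates 3 and 4 and replicates 1 and 2 of the FGF experiment, fitted with the treatment as a covariate. The labels do not say what the numbers stand for, and the split was known from earlier results of these data, so the p-values below describe its size against the spread within the sets and are no independent evidence of it. *Malat1* fell from 34110 ± 3996 CPM (SD, n = 6) in replicates 1 and 2 to 18646 ± 3609 CPM (SD, n = 5) in replicates 3 and 4, a log2 fold change of −0.91 (SE 0.09, adjusted p = 8.1e-07 by edgeR). *Neat1* fell from 94.0 ± 16.8 CPM (SD, n = 6) to 28.7 ± 9.07 CPM (SD, n = 5), a log2 fold change of −1.70 (SE 0.28, adjusted p = 0.00051 by edgeR). *Snhg8* rose from 205 ± 33.6 CPM (SD, n = 6) to 296 ± 32.7 CPM (SD, n = 5), a log2 fold change of 0.55 (SE 0.15, adjusted p = 0.044 by edgeR). These 3 of 9 lncRNAs were called, against 586 of 14553 genes (4.03%), and the same 3 did not overlap between sets, against 4.8% of genes. Any part of the U-rich and A-rich ends of *Malat1* and *Neat1*, printed above, in their differences was not tested.

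The falls of *Malat1* and *Neat1* stood with each of the 11 libraries left out, with log2 fold changes of −0.996 to −0.85 for *Malat1* and −1.91 to −1.56 for *Neat1*. The call of *Snhg8* did not: it was kept in 1 of 11 cases, when FGF10 replicate 2 was left out (adjusted p = 0.023 by edgeR), and lost in the other 10, where its adjusted p was 0.051 to 0.16. The log2 fold change of *Snhg8* stayed between 0.46 and 0.62. By treatment it had 229, 222, 272 and 283 CPM in PBS replicates 1 to 4, 168, 179, 352 and 297 CPM in FGF2 replicates 1 to 4 and 178, 250 and 276 CPM in FGF10 replicates 1, 2 and 3. The highest library of replicates 1 and 2 had 250 CPM and the lowest of replicates 3 and 4 had 272 CPM.

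The other 6 lncRNAs were not called between the sets. *Gas5* had 2046 CPM and 2020 CPM, with a log2 fold change of −0.05 (SE 0.12), and *Pantr1* had 307 and 314 CPM, with 0.04 (SE 0.14). *Miat* had a log2 fold change of −0.45 (SE 0.26, adjusted p = 0.49 by edgeR), and −0.19 with FGF2 replicate 3 left out. *Snhg1* had 0.43 (SE 0.28), *Snhg12* 0.63 (SE 0.46) and *Rmst* −0.20 (SE 1.43).

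Many other values moved with the same sets, between which 4.03% of all genes tested were called. Their part in the differences of *Malat1*, *Neat1* and *Snhg8* was not tested. The sum of 7 cell cycle genes was 208 to 377 CPM in replicates 1 and 2 and 952 to 1542 CPM in replicates 3 and 4. Neuron markers summed to 156 to 236 CPM and 32.2 to 71.7 CPM, oligodendrocyte lineage markers to 360 to 565 CPM and 124 to 337 CPM, ependymal markers to 311 to 483 CPM and 78.6 to 222 CPM, and astrocyte markers to 4443 to 5208 CPM and 3454 to 3884 CPM, in the same order. Of these lists, 4 of 7 cell cycle genes rose and 0 fell, 2 of 10 neuron markers fell, 1 of 6 oligodendrocyte lineage markers tested and 1 of 3 ependymal markers tested fell, and 3 of 10 astrocyte markers (*Sox9*, *Gja1* and *Slc1a2*) fell while *Aldh1l1* rose. *Top2a*, which untangles DNA in dividing cells, rose by 2.21 on the log2 scale (SE 0.20), and *Tubb3*, a tubulin of neurons, had a log2 fold change of −2.18 (SE 0.39). Microglia markers summed to 0 to 6.34 CPM and fibroblast markers to 0 to 19.5 CPM over all 17 libraries. Endothelial and mural markers summed to 18.3 to 74.4 CPM in replicates 1 and 2 and 0 to 17.9 CPM in replicates 3 and 4, and 1 of the 3 tested, *Pdgfrb*, fell. Ribosomal protein genes took 5.76% to 6.71% of the counts in replicates 1 and 2 and 8.33% to 9.75% in replicates 3 and 4.

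**Figure D3:**
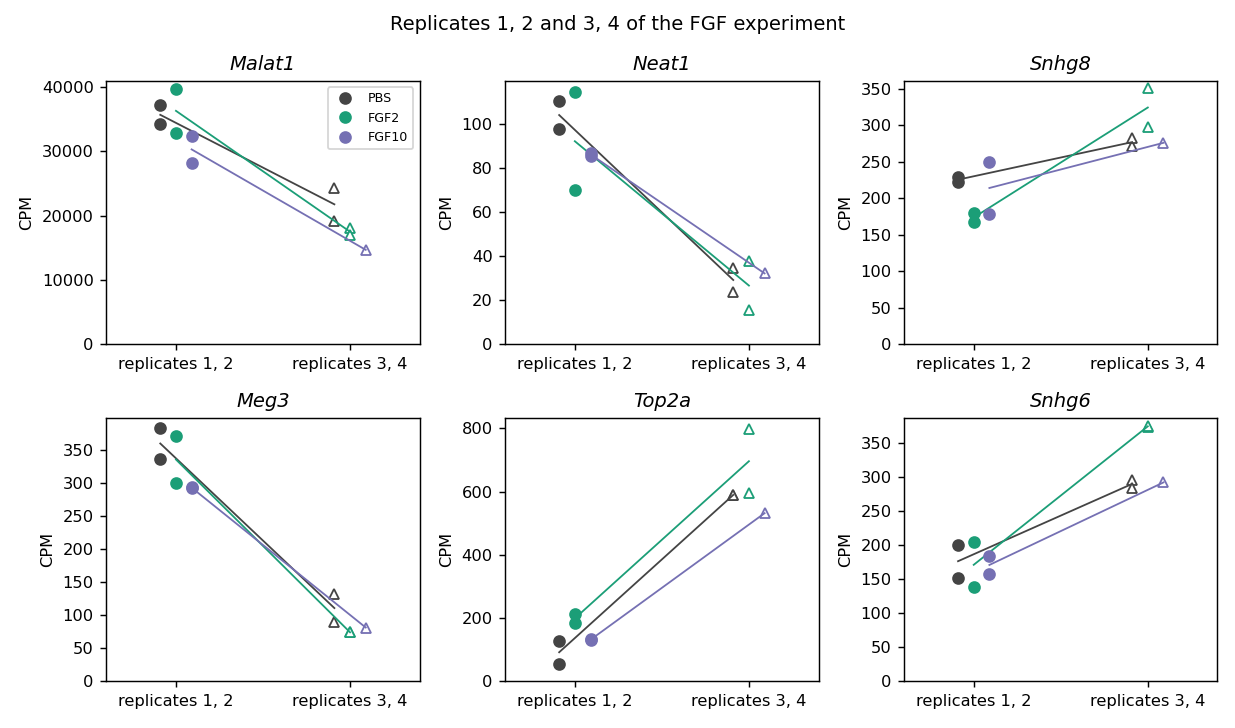
CPM (linear axes from 0) in replicates 1 and 2 (filled circles) and 3 and 4 (open triangles) of the FGF experiment by treatment; lines join the means of a treatment. Malat1, Neat1 and Meg3 are lower in every library of replicates 3 and 4, and Snhg8, Snhg6 and Top2a are higher.

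The control cultures of the 2 experiments differ in solvent, days in culture and experiment, which cannot be told apart. No lncRNA was called by edgeR between PBS and DMSO (0 of 13271 genes, 0%), 1 of the 9 had an unadjusted p under 0.05, and DESeq2 called none of the 9. Over all genes, 580 had an unadjusted p under 0.05, with 664 expected by chance, and DESeq2 called 193. The lncRNA was *Malat1*, at 28734 ± 8404 CPM (SD, n = 4) in PBS controls and 44669 ± 6447 CPM (SD, n = 3) in DMSO controls, a log2 fold change of −0.62 (SE 0.22, adjusted p = 1.00). Without a filter on low counts its adjusted p was 0.042 by edgeR. All 4 PBS libraries were below all 3 DMSO libraries for *Malat1*, *Gas5* and *Miat*, 3 of the 9 lncRNAs, against 6.41% of genes without overlap. For *Malat1* the nearest libraries were PBS replicate 1, at 37155 CPM, and DMSO replicate 3, at 37574 CPM, and the log2 fold change was −0.47 without PBS replicate 3 and −0.55 without PBS replicate 4.

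The 4 hosts are part of a list of 23 snoRNA hosts, of which 20 were tested, so the counts and medians below include them. With SAG none of the 20 was called by edgeR, and the median log2 fold change was −0.01, against −0.02 over all genes. The hosts with the smallest p were *Zfas1*, at 0.71 (SE 0.18, adjusted p = 0.40), and *Snhg6*, at 0.95 (SE 0.26, adjusted p = 0.42). Between the replicate sets, where 4.03% of all genes were called, 2 of 20 rose and 0 fell, *Snhg8* and *Snhg6*. *Snhg6* had a log2 fold change of 0.90 (SE 0.15, adjusted p = 0.00084), with 138 to 204 CPM in replicates 1 and 2 and 284 to 375 CPM in replicates 3 and 4. The median over the 20 was −0.07, against −0.03 over all genes, with 7 above 0 and 13 below. For FGF2 and FGF10 none of the 20 was called, with medians of 0.04 and −0.12, and the smallest p-values were those of *Snhg17* (0.17) and *Snhg3* (0.21).

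**Figure D4:**
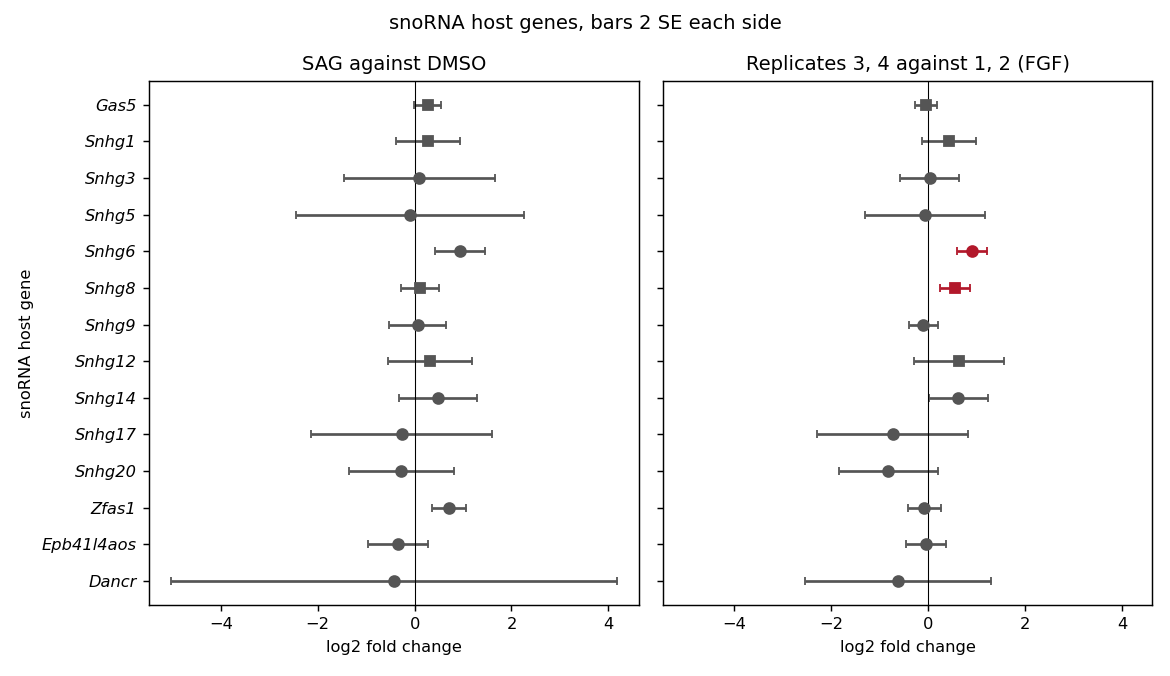
Log2 fold change with 2 SE on either side for the 14 snoRNA host genes with an SE under 1 between the replicate sets; squares are Gas5, Snhg1, Snhg8 and Snhg12, circles are other hosts, and red marks an adjusted p under 0.05. Snhg6 (0.90) and Snhg8 (0.55) are red in the panel of replicate sets, and no host is red with SAG.

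Genes for the proteins that work with these RNAs were measured next. With SAG, FGF2 or FGF10 none was called among 11 snoRNP proteins, which bind snoRNAs, 10 nonsense-mediated decay factors, 13 paraspeckle proteins and 14 nuclear speckle proteins. With SAG the smallest p-values in these 4 lists were those of *Nop58* (log2 fold change 0.44, SE 0.23), *Upf2* (−0.76, SE 0.31), *Tardbp* (−0.51, SE 0.28) and *Sf3b1* (0.49, SE 0.21), and the list medians were 0.25, 0.04, −0.17 and −0.18. For FGF2 they were those of *Nolc1* (0.71, SE 0.30), *Smg9* (1.44, SE 1.15), *Hnrnph3* (−0.35, SE 0.23) and *Sf3b1* (−0.32, SE 0.18). For FGF10 those of 3 of the lists were *Nop56* (−1.01, SE 0.43), *Upf3a* (−0.42, SE 0.34) and, among nuclear speckle proteins, *Srsf2* (0.66, SE 0.28). Between the replicate sets the 13 paraspeckle proteins had a median log2 fold change of 0.32, with 8 of them above 0. No nuclear speckle protein was called. *Srsf5*, a splicing factor, had the smallest p, with −0.48 (SE 0.14, adjusted p = 0.060). None of 11 snoRNP proteins and none of 10 decay factors was called between the sets. Those with the smallest p were *Nhp2*, at 0.57 (SE 0.40), and *Upf3b*, at 0.48 (SE 0.21, adjusted p = 0.27). The decay factors had a median of −0.48, with 8 of 10 below 0, against −0.03 over all genes.

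Of 22 other brain lncRNAs tested between the replicate sets, where 4.03% of all genes were called, 1 fell and 0 rose. It was *Meg3*, an imprinted lncRNA, with 292 to 383 CPM in replicates 1 and 2 and 73.5 to 132 CPM in replicates 3 and 4 (log2 fold change −1.91, SE 0.16, adjusted p = 2.6e-07 by edgeR). The median of the 22 was −0.35, and 18 of them had a value below 0. With SAG the smallest p among 19 was that of *Six3os1*, at 1.03 (SE 0.38, adjusted p = 0.67). For FGF2 it was *Six3os1* again, at 0.73 (SE 0.32), and for FGF10 *Mir99ahg*, at 0.68 (SE 0.23), neither called. Among 9 factors tied to single lncRNAs, *Celf3*, an RNA-binding protein known to meet *Miat*, had a log2 fold change of −2.07 between the sets and fell (SE 0.41, adjusted p = 0.0038). *Pou3f2*, a relative of the neighbour of *Pantr1*, had a log2 fold change of −0.80 with SAG (SE 0.25, adjusted p = 0.52). The smallest p among them was that of *Sf1*, at −0.62 (SE 0.29), for FGF2 and that of *Celf3*, at 1.33 (SE 0.62), for FGF10, neither called.

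The protein-coding genes next to the 9 lncRNAs were measured as well, 17 in all with *Zbtb37*, which overlaps *Gas5* on the other strand. None of the 11 tested was called with SAG, none of 11 for FGF2 and none of 12 for FGF10. Between the replicate sets 1 of 13 was called, against 4.03% of all genes tested. This was *Slc3a2*, an amino acid transporter subunit whose gene lies 0.106 kb from *Snhg1*. It rose from 218 ± 62.5 CPM (SD, n = 6) to 345 ± 44.3 CPM (SD, n = 5), a log2 fold change of 0.70 (SE 0.17, adjusted p = 0.018), where *Snhg1* had 0.43 (SE 0.28). *Frmd8*, on the side of *Neat1* with higher coordinates, had −0.09 (SE 0.27, adjusted p = 0.96). *Pou3f3*, which starts 0.926 kb from *Pantr1*, had −0.20 (SE 0.15, adjusted p = 0.67). *Tmpo*, on the side of *Rmst* with lower coordinates, had 0.70 (SE 0.24, adjusted p = 0.13).

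The genes on the opposite strand within *Malat1*, *Miat* and *Gas5* could exchange reads with them if counting ignored strand, which the sources used here do not give. The *Malat1* antisense gene *Gm37376* had at most 102 counts in a library and the *Miat* antisense gene *Gm26953* at most 288, while *Malat1* had at least 562540 and *Miat* at least 2160. *Zbtb37* had at most 2683 counts and *Gas5* at least 35580.

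The genes whose deviations from the group means were most like those of a lncRNA were sought among genes with a mean of at least 50 CPM, over 17 libraries, and are given as a description. Libraries share the replicate sets, so Pearson's r is also given after the means of group and set were removed. For *Malat1* they were *Dtna*, a gene of the dystrophin complex (r = 0.95, and 0.82 within sets), and *Meg3* (r = 0.95, and 0.40 within sets). For *Neat1* the closest was *S100a6* (r = 0.90, and 0.83). For *Gas5* they were *Zfas1*, itself a snoRNA host (r = 0.78, and 0.72), and *Rab18* (r = 0.78, and 0.75). *Snhg8* was most like *Fasn*, the fatty acid synthase (r = 0.93, and 0.95), and *Rpl13a*, a ribosomal protein gene (r = 0.91, and 0.85). *Snhg1* was most like *Prr18* (r = 0.93, and 0.89) and *Noc2l* (r = 0.88, and 0.79), and *Snhg12* was most like *Chp1* (r = 0.89, and 0.91) and *Lap3* (r = 0.82, and 0.82). *Miat* was most like *Dpysl4* (r = 0.95, and 0.93) and *Ttyh1* (r = 0.90, and 0.89), the closest of 3324 genes compared. These r values include FGF2 replicate 3, where *Miat* had 45.7 CPM, and were not taken without it. Those of *Snhg12* include PBS replicate 2, at 8.14 CPM. Those of *Rmst* (below) include FGF2 replicates 2 and 3, at 1 and 0 counts. *Pantr1* was most like *Tnfrsf19* (r = 0.86, and 0.88) and *Mpped2* (r = 0.76, and 0.73), and *Rmst* was most like *Gadd45g* (r = 0.74, and 0.81) and *Mgll* (r = 0.73, and 0.78). Of these genes *Meg3* had the smallest r within the sets.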

How the data were processed

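Bulk 3′-end RNA-seq of 17 libraries was analyzed from the deposited table of read counts per gene. The authors primed on poly(A), removed BC1 transcripts, and aligned and counted reads with STAR; counts were deposited without normalization. GRCm38 is named in the submitters' notes, while annotation, strand setting and use of molecular identifiers are not given in the sources used here. All 4 labelled FGF2 libraries were used; the study's methods list 3 for that group. The 114 spike-in rows were left out. Counts were tested in R 4.3.3 with edgeR 4.0.16 (genes kept by filterByExpr at count 10 and total 15, TMM, quasi-likelihood test, Benjamini-Hochberg adjustment over all genes, called under 0.05) and, as an alternative, DESeq2 1.42.0. Two-sided exact permutation tests used CPM. The test was also run on simulated counts with 200 genes changed, by more than the fitted treatment differences of the 9 lncRNAs. For treatments these counts held no shift between replicate sets. That run therefore does not show how the test does on small differences in the FGF experiment. Deviations of same-numbered libraries correlated at 0.18 to 0.40 in each pair of FGF groups. These deviations include the difference between the replicate sets, and libraries of different numbers within a set were not compared. The check therefore cannot show pairing by number, and a replicate block was run only as an alternative. Named genes were all 9 lncRNAs, genes called in each list or else that with the smallest p, adjacent coding genes, the 2 most alike genes and *Ptch1*, *Gli1* and *Spry4*. Members, lists and the replicate split were chosen with earlier results of these data known. Total counts ran from 17481727 to 68342287, and replicate spread set the precision. Sequences came from GENCODE M21 and RefSeq. Results of some genes are not reported here.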

Additional observations from a re-analysis of the deposited data

Results flagged for a closer look

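Of 18 sets of 4 libraries (9 lncRNAs in PBS and in FGF2), 1 held a library far from the others. *Miat* had 186 CPM in PBS replicate 2, while the other PBS libraries lay between 208 and 209 CPM, so its gap took nearly the whole range of the group, a ratio of 0.978, past Dixon's 95% critical value. Chance sets apart about 1 in 20 such groups. The group as a whole was narrow, with a coefficient of variation of 5.53%.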

How the results depend on the processing

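Of 774 alternative values of log2 fold changes, 690 kept direction and side of the threshold, 69 changed sign, 12 lost and 2 gained a call, and 1 with no test moved by more than the spread between libraries. The falls of *Malat1* and *Neat1* between the replicate sets were called under all alternatives run. The number of lncRNAs called became 1 with DESeq2 for SAG against DMSO (*Miat*) and 1 without a low-count filter for PBS against DMSO (*Malat1*). Over all genes the 8 calls with SAG became 76 without the filter, 4 with all groups in 1 fit, 407 with DESeq2 and 1 to 7 with a library left out, and the 586 between the sets became 3089 with DESeq2. For PBS against DMSO, 36 were called without the filter and 1 with all groups in 1 fit, and for FGF2 against FGF10, 2 without the filter. *Snhg8* between the sets lost its call on total counts without mitochondrial rows, an alternative chosen after seeing the data (adjusted p = 0.054), and with DESeq2 size factors (0.055).

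With a replicate block, signs changed for FGF10 against PBS in *Neat1* (−0.027) and *Snhg12* (0.20) and for FGF2 against FGF10 in *Snhg1* (−0.13) and *Snhg8* (−0.073), and the block changed no call of the 9 lncRNAs. Numbers did not pair SAG with DMSO libraries (r of −0.04 to 0.02) or PBS with DMSO, and a block left 0 lncRNAs called. Within replicates 1 and 2, FGF2 against PBS turned to 0.027 for *Malat1*, −0.47 for *Snhg1* and 0.26 for *Miat*, and FGF10 against PBS to −0.28 for *Neat1* and −0.0088 for *Snhg1*. Within replicates 3 and 4, FGF2 against PBS turned to 0.22 for *Snhg8*, and FGF10 against PBS to 0.22 for *Snhg12*, −0.28 for *Miat* and 0.053 for *Pantr1*. With the set as a term, FGF10 against PBS gave −0.11 for *Neat1* and −0.046 for *Miat*. The cause of these changes was not tested.

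With each library left out, signs changed within these ranges. SAG against DMSO gave *Snhg1* −0.024 to 0.46 and *Snhg8* −0.016 to 0.20. FGF2 against PBS gave *Malat1* −0.34 to 0.068, *Neat1* −0.69 to 0.19, *Snhg8* −0.23 to 0.14 and *Miat* −0.39 to 0.11. FGF10 against PBS gave *Malat1* −0.43 to 0.073, *Neat1* −0.25 to 0.39, *Snhg8* −0.24 to 0.046, *Snhg12* −0.41 to 0.21 and *Miat* −0.086 to 0.20. FGF2 against FGF10 gave *Malat1* −0.17 to 0.33, *Neat1* −0.73 to 0.12, *Snhg1* −0.22 to 0.38, *Snhg8* −0.13 to 0.24, *Miat* −0.45 to 0.042 and *Pantr1* −0.11 to 0.074. PBS against DMSO gave *Snhg1* −0.42 to 0.070, *Snhg8* −0.099 to 0.027, *Snhg12* −0.54 to 0.097 and *Pantr1* −0.026 to 0.16. The replicate sets gave *Gas5* −0.094 to 0.059, *Rmst* −1.18 to 0.56 and *Pantr1* −0.037 to 0.13.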
